A study of Mus musculus with 10 samples.

Results

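Open chromatin was examined at 7 mouse genes of the complement system, C3, Cfb, Cfi, C4b, Serping1, Cd55 and Cd59a, in the epicardium, which is the mesothelium of the heart, and in cells derived from it. A peak belonged to a gene when its summit lay inside the gene or within 25 kb of it on mm10, and to its promoter when the summit lay within 1 kb of the gene start, taken as the outermost 5′ end of the gene in GENCODE M21. The 7 loci, 488.6 kb in all, held 77 regions of the 184764 formed from all lists, and 63 of the 154147 regions found in at least 2 lists. The cells came from pooled littermate hearts of Rosa26tdTomato; Wt1CreERT2/+ embryos given tamoxifen at E9.5, in which the Wt1 allele drives the recombinase, so a cell and its progeny were labelled where Wt1 was active at that time. Epicardial cells were sorted as CD31-tdTomato+PDPN+ at E11.5 (n = 3, 6 hearts each) and E17.5 (n = 3, 4 hearts each), and epicardium-derived cells (EPDCs) as CD31-tdTomato+PDPN- at E12.5 (n = 1) and E13.5 (n = 2, 4 to 13 hearts each by the labels, while the study's methods state a narrower range). The stages of the epicardium were compared with each other, and the EPDCs with the epicardium. In this design the cell population of the EPDCs, their stage and any difference in processing cannot be told apart.

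Complement is a cascade of plasma proteins that marks surfaces for uptake or lysis. C3 is its central component, cleaved by convertases that contain C4b from the classical and lectin pathways or factor B, encoded by Cfb, from the alternative pathway. Factor I (Cfi) degrades C3b and C4b, C1 inhibitor (Serping1) blocks the proteases that start the classical and lectin pathways, CD55 (Cd55) speeds the decay of convertases on the cell surface, and CD59 (Cd59a) stops the membrane attack complex. Mesothelial cells of body cavities are known to make several of these proteins.

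Assay for transposase-accessible chromatin with sequencing (ATAC-seq) cuts DNA where nucleosomes leave it exposed, and peaks mark such sites. Each of the 9 peak lists held 94909 to 142743 summits on chromosomes 1 to 19, X and Y. The level of a site in a list is given as the rank percentile of its strongest summit by −log10 p among all summits of that list, and as 0 where no summit was called. A 0 means that no summit passed the caller's threshold there, and a site at 0 may still have been open to some degree. At the background of the genome, between 2.07 and 10.9 fragments, the fewest fragments that made a summit were 9 to 13 in 8 lists and 24 in the second E13.5 EPDC list, which had the deepest coverage. Over the regions tested, lists of the same group had Spearman correlations of 0.829 to 0.920, given as a description since the lists share the regions. In sorted bulk cells, fewer cells with an open site and less opening in each cell cannot be told apart.

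The sorted populations were first checked on promoters of cell type markers. All 10 epicardial marker promoters were called in some list. Of these, 4 were lower in EPDCs without overlap (Upk3b, Upk1b, Krt8 and Aldh1a2), while Wt1, Tbx18, Sema3d, Msln, Krt19 and Pdpn, the gene of the sorted surface protein, overlapped. Between stages 4 were higher at E17.5 (Msln, Krt19, Krt8 and Aldh1a2) and 4 lower (Wt1, Upk3b, Upk1b and Pdpn), with a median difference of -1.74 points. Of 8 mesenchymal promoters Postn and Cspg4 were higher in EPDCs, and Pdgfra, Pdgfrb, Col1a1, Col3a1, Tcf21 and Vim overlapped. By stage, Postn and Col3a1 were higher at E17.5 without overlap and none was lower. Upk3b and Postn are given in full and were chosen after their values were seen. Upk3b, a uroplakin of mesothelium, had percentiles of 97.0 to 99.2 in the 6 epicardial lists and of 73.6, 22.8 and 46.1 in the EPDC lists, and Postn, a matrix gene of fibroblasts, was at 0 in all 3 E11.5 lists, 43.5 to 50.2 at E17.5 and 71.7 to 81.8 in EPDCs. Summed percentiles over the 10 epicardial promoters were 692 to 726 at E11.5, 830 to 894 at E17.5 and 536 to 614 in EPDCs, and those over the mesenchymal promoters were 519 to 529, 545 to 603 and 622 to 654. The usual sources of complement were also looked for. Of 6 blood and macrophage promoters only Cd68 was called, higher at E17.5 and lower in EPDCs at 52.2 to 61.1, 71.3 to 79.9 and 0 to 22.2, while Ptprc, Csf1r, Spi1, Adgre1 and Hbb-bt were at 0 in all 9 lists. Of 6 hepatocyte promoters Afp and Ttr were called, with sums of 58.7 to 63.4, 0 to 67.7 and 33.3 to 76.2, and Alb, Apoa1, Serpina1a and Fgb were at 0 throughout. Ttr was lower at E17.5 without overlap. Kdr and Tek were called among 6 endothelial promoters, with sums of 171 to 178, and Pecam1, Cdh5, Tie1 and Emcn were at 0. Kdr was higher in EPDCs (90.7, 92.7 and 93.2) than in the epicardium (88.1 to 89.6), and Tek overlapped. Of 6 cardiomyocyte promoters 5 were called, with sums of 215 to 278 at E11.5, 172 to 207 at E17.5 and 168.0 to 174.7 in EPDCs, and Myh6 was at 0. Of these Tnnt2 and Actn2 were lower at E17.5 without overlap, and Myh7 was higher at E17.5 (31.6, 44.8 and 59.8) than at E11.5 (22.7 to 31.1) and at 0 in EPDCs. The part of these cells in the results below was not tested.

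The 7 promoters fell into separate patterns. Serping1, Cd55 and Cd59a were open in all 9 lists, Cfi was open in all 9 with a level that followed stage and population, C3 was called at E17.5 alone, Cfb in a single list and C4b in none. Between stages, the groups did not overlap at 2 of the 5 promoters found in at least 2 lists, C3 and Cfi, both higher at E17.5, against 11.3% of the 14922 protein-coding promoters tested. C3 was among the 5 only through the lists in which it was high. None of the 5 was lower at E17.5, against 25.4% of all promoters. The split over all promoters changed with the scale, to 33.2% higher and 12.2% lower on the log2 depth-normalized score, the log2 of the −log10 p as a share of the sum over its list (scaled, plus 1), and to 23.6% and 15.2% with equal numbers of top summits. The member count moved as well. On both of these scales 4 of the 5 were higher at E17.5 (C3, Cfi, Cd55 and Cd59a) and none lower. When summits were ranked by fold enrichment 3 were higher, against 12.4% of all promoters. Between EPDCs and epicardium only Cfi stood apart, being lower in EPDCs, against 9.80% of all promoters, and none was higher, against 7.05%. With 3 lists against 3 the exact permutation test cannot go below p = 0.1, and no adjusted p over all promoters was below 0.273 for stage or 0.0893 for EPDCs.

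**Figure D1:**
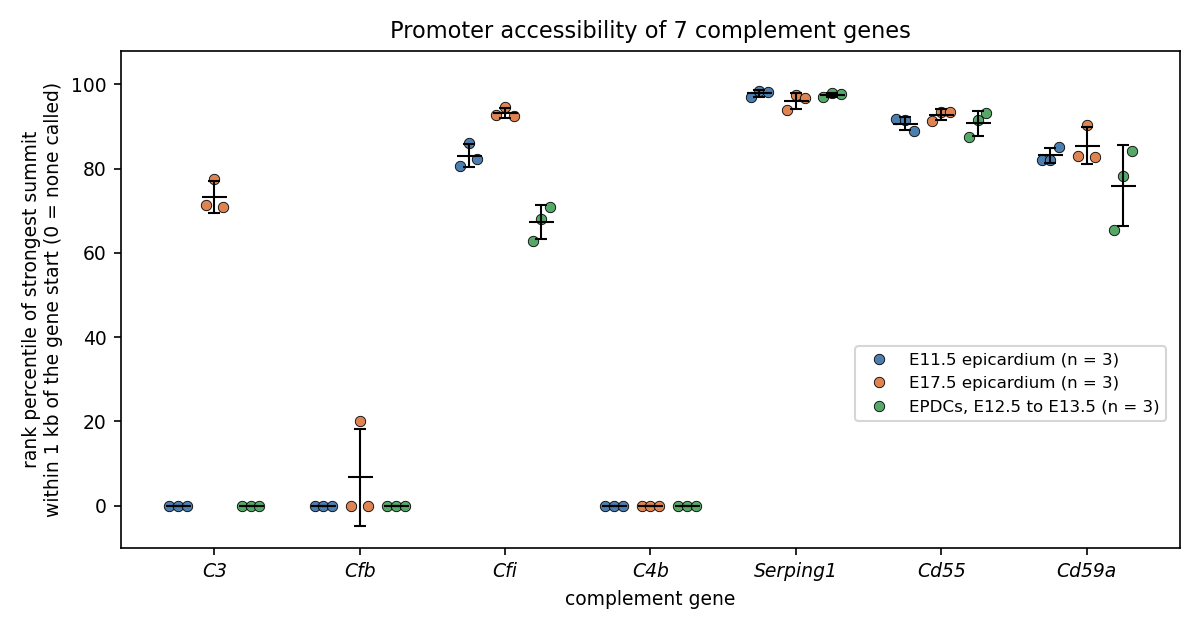
Rank percentile of the strongest summit within 1 kb of each gene start, on the vertical axis, for the 7 genes; each point is 1 list, and bars give the mean and SD of 3 lists. C3 was called only at E17.5 (70.9 to 77.6), Cfi was highest at E17.5 and lowest in EPDCs, and Serping1 lay above 94 in every list.

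C3 (chr17:57203970-57228136, minus strand) had no summit within 1 kb of its start in any E11.5 or EPDC list and had percentiles of 71.3, 77.6 and 70.9 in the E17.5 lists, a mean of 73.3 ± 3.73 (SD, n = 3). The strongest E17.5 summits lay 4, 33 and -22 bp from the start and rested on 86, 176 and 138 fragments, which were 5.86, 5.41 and 4.82 times the local background. In the other lists no interval came closer to the start than 1487 bp. The groups of both stages did not overlap, which is given without a test, since C3 met the minimum of 2 lists only through the E17.5 lists. The call was lost when every annotated transcript start was used (difference of 7.29 points), because a shorter C3 transcript starts inside the gene near C3 +4.7 kb. Since E11.5 was also at 0, EPDCs overlapped the epicardium as a whole (difference of -36.6 percentile points, without a test for the same reason). Among the epicardial markers, and chosen after their values were seen, the mesothelial gene Msln showed the same presence, at 0 outside E17.5 and at 77.4, 88.7 and 78.8 within it, as did the keratin gene Krt19, at 34.1, 68.8 and 48.8. Presence in all 3 E17.5 lists and in none of the other 6 was seen at 62 of the 14922 promoters, or 0.415%.

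The promoter of C3 is shown because it lay inside the E17.5 peak. The 250 bases before the RefSeq start (GRCm38.p6, chr17:57228137-57228386, minus strand, read 5′ to 3′) carried 1 match, in capitals, to the 10 short motifs searched on both strands, that of C/EBP factors (TTGCNNAA), which respond to acute-phase signals, at positions -45 to -38.

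C3 promoter: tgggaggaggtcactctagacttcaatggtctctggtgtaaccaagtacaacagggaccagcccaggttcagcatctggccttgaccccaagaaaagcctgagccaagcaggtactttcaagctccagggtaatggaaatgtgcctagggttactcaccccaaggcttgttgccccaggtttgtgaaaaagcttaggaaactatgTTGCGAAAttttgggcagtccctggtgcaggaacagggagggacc

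The same C/EBP letters were present in 9.56% of 32851 RefSeq promoters over this length. The GC content of the stretch was 52.0%, close to the median of 52.4%, and it held 1 CpG, a ratio of observed to expected of 0.0597 against a median of 0.373. A TATAAA match lay 15 to 20 bases after the annotated start, in a stretch of 50 bases where 0.691% of promoters had one on that strand.

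Inside C3 the order of the stages was the opposite. The C3 +13.3 kb region (chr17:57214626-57215126) lies in intron 25 of 41 exons and had percentiles of 63.3, 80.7 and 78.4 at E11.5, none at E17.5, and 39.3, 49.2 and 60.1 in EPDCs. It fell by 74.1 percentile points between E11.5 and E17.5 with no overlap (exact permutation p = 0.1), the largest fall among the 63 regions, and rested on 48 to 79 fragments at E11.5. No E17.5 interval covered it. EPDCs lay between both epicardial stages and overlapped the 6 epicardial lists (exact permutation p = 0.536). The C3 +4.7 kb region in intron 11 also was lower at E17.5 (26.8, 26.3 and 11.9) than at E11.5 (59.0, 67.0 and 72.0), and was chosen after its values were seen. Upstream, the C3 -3.6 kb region (chr17:57231477-57231977), between genes, went with the promoter. It was at 0, 0 and 7.10 at E11.5, rose to 63.9, 75.4 and 62.9 at E17.5 without overlap, and was 0, 9.14 and 26.2 in EPDCs. A weaker region next to it, C3 -5.0 kb, was likewise higher at E17.5 (33.4, 42.0 and 44.9) than at E11.5 (14.9, 15.0 and 27.4), and was lower still in EPDCs (0, 0 and 11.8); it was chosen after its values were seen.

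The 201 bases around both summits (plus strand, 5′ to 3′) are shown since they carry the opposite changes at 1 gene. In C3 +13.3 kb (chr17:57214776-57214976) the capitals mark a GC box (GGGCGG), present in 13.8% of the 154147 regions over this length, and the CCAAT box in both orientations, present in 21.9%. C3 -3.6 kb (chr17:57231627-57231827) held no match to the 10 motifs.

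C3 +13.3 kb: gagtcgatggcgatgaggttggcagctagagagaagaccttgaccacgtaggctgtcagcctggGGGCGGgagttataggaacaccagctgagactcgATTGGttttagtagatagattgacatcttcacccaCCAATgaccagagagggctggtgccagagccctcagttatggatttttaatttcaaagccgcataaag

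C3 -3.6 kb: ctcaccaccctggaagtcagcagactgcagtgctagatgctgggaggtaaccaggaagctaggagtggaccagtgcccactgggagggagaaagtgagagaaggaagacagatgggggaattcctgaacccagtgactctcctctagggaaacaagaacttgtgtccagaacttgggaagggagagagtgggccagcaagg

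The strongest region of the C3 locus, C3 -19.7 kb, lay 609 bp inside the outer start of the neighbouring gene Gpr108, at 99.3 to 99.9 in every list. C3 -22.0 kb, in intron 1 of Trip10, lay between 54.8 and 72.2 in all 9 lists. At neither did the groups stand apart by rank percentile in either comparison, but on the log2 depth-normalized score C3 -19.7 kb was higher in EPDCs without overlap (0.56).

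At Cfb and C4b, whose products are parts of the convertases that cleave C3, few or no promoter summits were called. Cfb (chr17:34856374-34862518, minus strand) had 1 promoter summit in all, in the second E17.5 list, at the percentile of 20.1 and with 20 fragments, 4.55 times its background and 202 bp inside the gene. In the 8 other lists the nearest interval was 6244 to 6420 bp from the start, past the end of the gene. The regions that stood out around Cfb were the promoters of its neighbours, Cfb +12.2 kb at the starts of Skiv2l and Nelfe (95.5 to 99.3) and Cfb +25.4 kb at Dxo and Stk19 (92.5 to 97.5). At Cfb +12.2 kb EPDCs (95.5, 96.5 and 97.9) lay just below the epicardium (98.3 to 99.3) without overlap, a difference of -2.12 percentile points (exact permutation p = 0.0119) that turned to 0.41 when summits were ranked by fold enrichment. Cfb -23.3 kb, in a long transcript of the complement gene C2 upstream of its usual start, was also lower in EPDCs (75.9, 77.7 and 76.3) than in the epicardium (85.9 to 93.6), and was chosen after its values were seen.

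C4b (chr17:34728380-34743882, minus strand) had no promoter summit in any list. Of the 40-base words in the 2 kb around its start, 63.7% occurred once on the assembled chromosomes and the others at most 2 times, and the authors removed reads that mapped to several places. How far this lowered the signal in the repeated part was not tested. The nearest intervals were 9763 bp away or farther. Within C4b itself the only region found in at least 2 lists, C4b +9.9 kb in exon 26, was called in E17.5 replicates 2 and 3 at 44.1 and 16.7, with 32 and 18 fragments, and 42.6% of its words were unique. C4b +30.7 kb, in intron 26 of the neighbouring Tnxb, was at 48.8, 58.2 and 54.5 in the E11.5 lists, at 38.2, 48.0 and 47.1 in the E17.5 lists and at 0, 0 and 47.2 in EPDCs, and the direction of its stage difference (-9.39) reversed to 0.55 with equal numbers of top summits.

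Cfi (chr3:129835884-129875332, plus strand) was the member promoter that differed in both comparisons. Its percentiles were 80.7, 86.0 and 82.3 at E11.5, 92.6, 94.7 and 92.5 at E17.5, and 62.9, 68.1 and 70.8 in EPDCs, so that the 3 groups did not overlap. The stage difference was 10.2 percentile points (exact permutation p = 0.1, the smallest that 20 assignments can give, and adjusted p = 0.273), and the difference of EPDCs from the epicardium was -20.9 points (exact permutation p = 0.0119, the smallest that 84 assignments can give, and adjusted p = 0.0893).

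The summits behind these values were not at the same place. Cfi has an outer start and, 853 bp inside it, the start of its main transcript. In all 6 epicardial lists the strongest summit lay 288 to 327 bp after the outer start, and in all 3 EPDC lists it lay before it, at -267, -228 and -249 bp. Taken as regions, the downstream one, Cfi +0.3 kb (chr3:129835928-129836428), was 80.7 to 86.0 at E11.5, 92.5 to 94.7 at E17.5 and 42.1, 30.4 and 59.1 in EPDCs. Its EPDC values were below all others, with a mean difference of -44.3 points (exact permutation p = 0.0119, adjusted p = 0.0721). The upstream one, Cfi -0.2 kb (chr3:129835406-129835906), was 49.4, 47.9 and 35.2 at E11.5 and higher in EPDCs, at 62.9, 68.1 and 70.8. In the first E11.5 list its summit lay nearer to the outer start than in the others, at -3 bp. At E17.5 it had no summit of its own, though an interval reached over it in all 3 lists.

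The ratio of fragments at the downstream to the upstream summit, which compares sites within a list, was 1.75, 2.10 and 2.19 at E11.5 and 0.610, 0.463 and 0.707 in EPDCs. Each E11.5 list thus had more fragments downstream and each EPDC list more upstream. No ratio was formed at E17.5, where the upstream summit was missing and the downstream one rested on 194, 345 and 286 fragments. This measure was chosen after the summits were seen and was not tested.

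**Figure D2:**
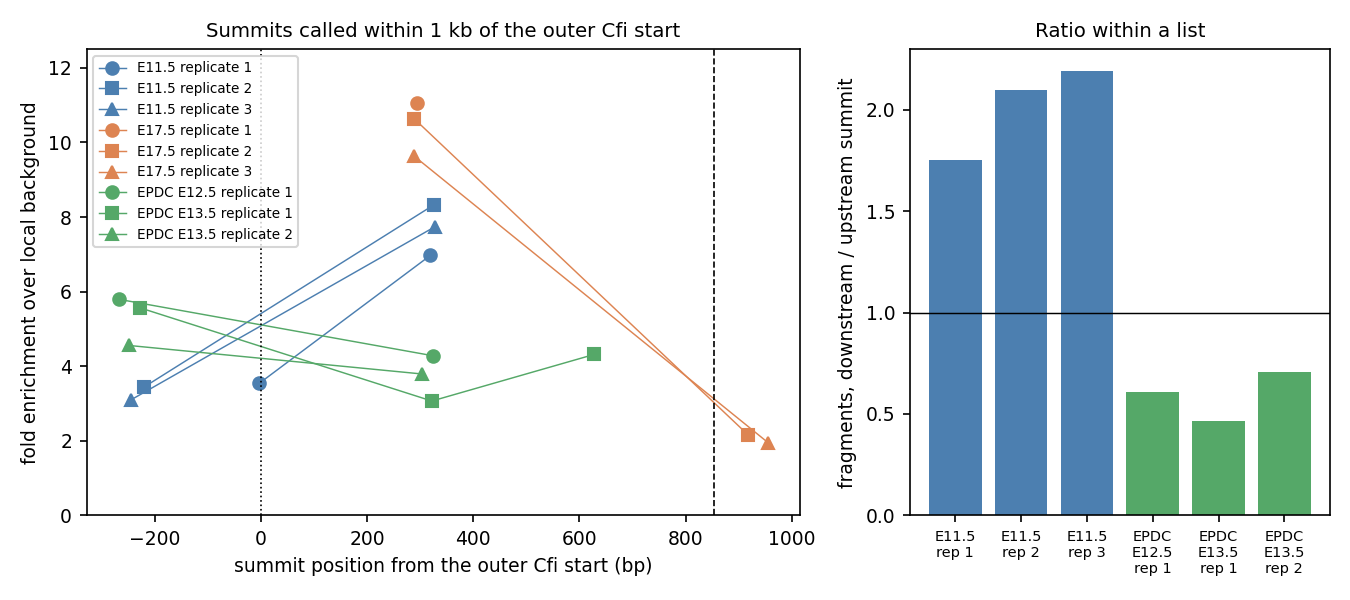
Left, fold enrichment of every summit within 1 kb of the outer Cfi start against its distance from that start in bp; each symbol is 1 summit, lines join the summits of 1 list, and the dotted and dashed lines mark the outer start and the main transcript start. Right, fragments at the downstream over the upstream summit in the 6 lists that had both; E11.5 lists lie at 1.75 to 2.19 and EPDC lists at 0.463 to 0.707.

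Within Cfi, the Cfi +11.9 kb region (chr3:129847494-129847994) in intron 1 showed the largest loss in EPDCs among the 63 regions. It was called at 35.1, 58.2 and 67.6 at E11.5, at 79.8, 86.1 and 82.0 at E17.5, and in no EPDC list. The epicardial lists held 25 to 117 fragments there, and the E17.5 values were 15.7 to 19.4 times the local background. The difference of EPDCs from the epicardium was -68.1 points, and E17.5 was higher than E11.5 by 29.0 points without overlap (exact permutation p = 0.1). The reverse was measured at Cfi +45.6 kb (chr3:129881185-129881685), in intron 1 of the next gene, Pla2g12a. It was at 0 in all 6 epicardial lists and at 54.2, 69.5 and 71.3 in EPDCs, with 60, 120 and 274 fragments. Both EPDC differences are given without a test, since each region met the minimum of 2 lists only through the population in which it was high. In the same intron Cfi +49.6 kb was lower in EPDCs (9.23 ± 8.78, SD, n = 3) than in the epicardium (29.1 to 69.0).

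These elements, called in 1 population and not in the other, are printed over 201 bases around the summit (plus strand, 5′ to 3′). Cfi +11.9 kb (chr3:129847644-129847844) held a CCAAT box beside the summit and a C/EBP match (TTGCNNAA, in 8.15% of regions), as the capitals show. Cfi +45.6 kb (chr3:129881335-129881535) held a TATA box (TATAAA, in 7.01% of regions) on the minus strand.

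Cfi +11.9 kb: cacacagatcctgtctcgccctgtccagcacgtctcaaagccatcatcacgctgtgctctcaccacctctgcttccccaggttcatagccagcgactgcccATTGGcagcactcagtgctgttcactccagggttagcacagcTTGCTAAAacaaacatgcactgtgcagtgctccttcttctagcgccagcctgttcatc

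Cfi +45.6 kb: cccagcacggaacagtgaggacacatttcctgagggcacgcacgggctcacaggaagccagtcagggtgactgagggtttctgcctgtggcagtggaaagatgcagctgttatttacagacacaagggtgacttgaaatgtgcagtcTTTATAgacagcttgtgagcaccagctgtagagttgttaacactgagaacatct

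The strongest distal regions of the Cfi locus were promoters of other genes. Cfi -4.5 kb at Gar1 (81.1 to 91.0) overlapped in both comparisons, and Cfi +42.8 kb at Pla2g12a was 92.0 to 93.8 in the epicardium and a little lower in EPDCs (88.1, 87.3 and 89.8), a difference of -4.63 points without overlap (exact permutation p = 0.0119).

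Serping1 (chr2:84765387-84775444, minus strand) had the strongest promoter of the 7. Its percentiles were 97.0, 98.4 and 98.3 at E11.5, 94.0, 97.5 and 96.8 at E17.5, and 96.9, 97.9 and 97.8 in EPDCs, and they overlapped in both comparisons (exact permutation p = 0.2 for stage and 0.702 for EPDCs). All 9 summits lay 489 to 527 bp inside the outer start, in intron 1, with 168 to 841 fragments and fold enrichments of 16.0 to 24.1. On the log2 depth-normalized score the EPDC lists were higher without overlap, by 0.25, while the stages still overlapped. Several distal regions around this promoter differed more. Serping1 +25 kb (chr2:84750180-84750680), beyond the 3′ end of the gene, was 0, 0.968 and 22.3 at E11.5, rose to 79.5, 75.8 and 80.4 at E17.5, and was 0, 51.4 and 67.2 in EPDCs. The E12.5 EPDC list had an interval over the site but no summit in it, and both E13.5 lists were called.

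Serping1 +32.7 kb (chr2:84742447-84742947), near the neighbour Gm19426, moved the other way. It was 73.5, 68.6 and 79.1 at E11.5, 9.09, 8.87 and 37.0 at E17.5, and 84.9, 80.5 and 81.3 in EPDCs, with no overlap in either comparison, although the lowest EPDC list (80.5) was close to the highest epicardial one (79.1). The exact permutation p was 0.1 for stage and 0.0833 for EPDCs. Serping1 -8.7 kb was also lower at E17.5 (78.3, 86.8 and 78.8) than at E11.5 (92.7, 94.0 and 90.4), a call lost when summits were ranked by fold enrichment, while Serping1 +31.6 kb, beside Gm19426, stayed between 94.1 and 97.7 in all lists.

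**Figure D3:**
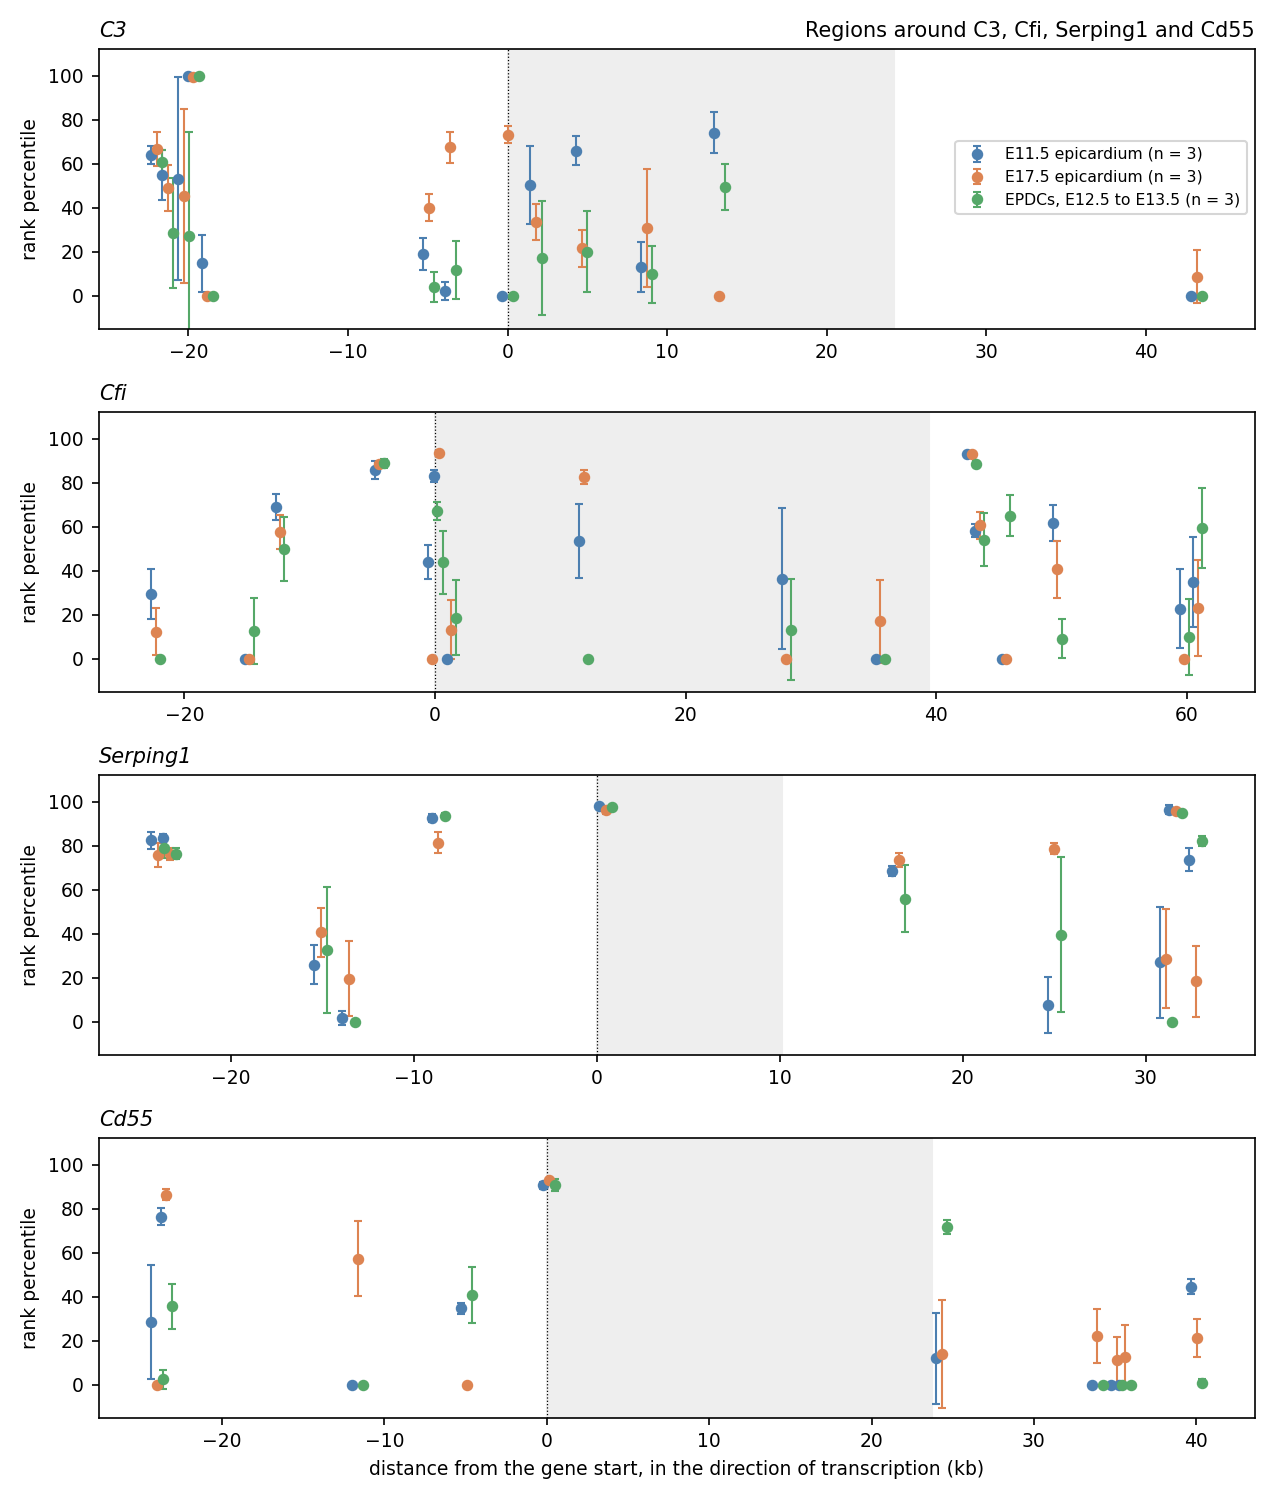
Rank percentile of every region found in at least 2 lists around C3, Cfi, Serping1 and Cd55, against its distance from the gene start in kb along the direction of transcription; points are means of 3 lists with the SD, a little offset for each group, and grey marks the gene. The C3 start and C3 -3.6 kb are high only at E17.5, C3 +13.3 kb is at 0 at E17.5, Cfi +11.9 kb is at 0 in EPDCs, and the Serping1 and Cd55 starts are high in all groups.

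The surface regulators Cd55 (chr1:130439027-130462744, minus strand) and Cd59a (chr2:104095801-104115354, plus strand) had promoters open in every list. Cd55 was at 91.8, 91.4 and 88.9 at E11.5, 91.3, 93.6 and 93.6 at E17.5, and 87.5, 91.6 and 93.1 in EPDCs, with overlap in both comparisons (exact permutation p = 0.3 and 0.571). Cd59a was at 82.2, 82.1 and 85.2, then 83.0, 90.5 and 82.9, and 65.4, 78.2 and 84.2 in EPDCs, where the E12.5 list was the lowest (exact permutation p = 0.5 and 0.0595). With equal numbers of top summits the stage groups came apart at both, higher at E17.5 by 4.88 points for Cd55 and 7.21 for Cd59a, as they did at both on the log2 depth-normalized score and at Cd59a by fold enrichment. Each has a near copy beside it, Cd55b and Cd59b, and 80.7% of the words around the Cd55 start and 79.1% of those around the Cd59a start occurred once on the assembled chromosomes.

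The 250 bases before both starts are set out with that of C3 in mind, since these promoters were called in all 9 lists. The Cd55 stretch (GRCm38.p6, chr1:130462745-130462994, minus strand) held the GC box, in capitals, at -77 to -72 and -7 to -2, a match present in 32.7% of promoters. Its GC content of 64.0% was above that of 80.8% of promoters. The Cd59a stretch (chr2:104095551-104095800, plus strand) had a GC content of 44.8% and no CpG, and matched the interferon response element (GAAANNGAA, in 7.13% of promoters) at -187 to -179.

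Cd55 promoter: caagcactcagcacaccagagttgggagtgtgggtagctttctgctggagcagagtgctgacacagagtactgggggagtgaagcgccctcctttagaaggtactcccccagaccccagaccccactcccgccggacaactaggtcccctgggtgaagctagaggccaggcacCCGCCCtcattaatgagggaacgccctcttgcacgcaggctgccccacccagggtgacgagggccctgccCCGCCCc

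Cd59a promoter: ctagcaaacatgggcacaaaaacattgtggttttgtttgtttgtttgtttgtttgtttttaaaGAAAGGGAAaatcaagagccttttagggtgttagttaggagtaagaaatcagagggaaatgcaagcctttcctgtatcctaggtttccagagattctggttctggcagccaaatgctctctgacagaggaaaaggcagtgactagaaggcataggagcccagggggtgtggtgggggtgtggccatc

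Of the 7 members, 3 had an entry in the RefSeq promoter table, C3, Cd55 and Cd59a; the others are Cfb, Cfi, C4b and Serping1.

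At the Cd55 locus the changes lay away from the promoter. Cd55 -11.7 kb (chr1:130474154-130474654) was called only at E17.5, at 38.2, 71.6 and 62.3 with 20, 62 and 46 fragments. Cd55 -23.4 kb (chr1:130485934-130486434) was 72.0, 78.9 and 78.0 at E11.5, 85.3, 89.0 and 84.4 at E17.5, and 45.9, 25.5 and 35.8 in EPDCs, so all 3 groups stood apart. Its EPDC difference was -45.5 points (exact permutation p = 0.0119, adjusted p = 0.0721). This is the order seen at the Cfi promoter, highest at E17.5 and lowest in EPDCs. Cd55 +24.3 kb, just past the end of the gene, was higher in EPDCs (68.6, 74.8 and 71.2) than in the epicardium, where it was called in 1 list of each stage at 36.0 and 42.5. Of its words 49.6% were unique. At the Cd59a locus, Cd59a +26.9 kb at the start of A930018P22Rik was at 95.6 to 98.3 in all lists, and Cd59a +38.8 kb fell from 65.5, 72.0 and 67.0 in the E11.5 lists to 45.0, 59.2 and 61.3 at the later stage, a change of -13.0 that reversed to 4.35 when summits were ranked by fold enrichment.

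Over all 63 regions, 12 were higher at E17.5 without overlap, against 13.1% of all regions tested, and 13 were lower (20.6%, against 32.8%). In EPDCs 10 were lower (15.9%, against 9.70%) and 4 higher (6.35%, against 11.2%). The regions higher at E17.5 were spread over 6 loci. They were 3 each at C3 and Cd55, 2 each at Cfi and Serping1 and 1 each at Cfb and Cd59a. Those lower in EPDCs were 4 at Cfi, 3 at Cfb, 2 at Cd55 and 1 at C3. A locus includes neighbouring genes, so these counts are not of the member genes alone. Among those lower in EPDCs, all 3 at Cfb lay at the starts of Skiv2l and Nelfe or within C2. Cfi +42.8 kb and Cfi +49.6 kb lay in Pla2g12a. Of those at Cd55, 1 was the promoter of Cd55b, which is counted again below among the other complement genes. The median stage difference was 0 points over the 63 regions and -3.95 over all regions, and the median EPDC difference was -6.37 and -2.85. The E17.5 lists held 94909 to 127933 summits and the E11.5 lists 119386 to 142743. Of the 12, 3 were called in E17.5 lists alone (against 27.1% of all regions higher at E17.5), and of the 13, 2 in E11.5 lists alone (against 13.7%), so these met the minimum of 2 lists only where they were high, as did 1 of the 10 lower in EPDCs (against 26.2%) and 1 of the 4 higher in them (against 34.5%). With equal numbers of top summits 17 of the 63 regions were higher at E17.5 and 8 lower (27.0% and 12.7%), against 17.2% and 19.9% of all regions tested. Single lists moved the counts, here given beside the share of all regions found in at least 2 of the remaining lists. How many of the 63 regions were left without each list is not given, so these counts and shares cannot be compared directly. Without E17.5 replicate 1, 24 regions were higher at E17.5 (20.2% of all regions), without E11.5 replicate 1 or E17.5 replicate 2, 22 and 20 were lower (42.9% and 39.3%), without the second E13.5 list 17 were lower in EPDCs (15.0%), and without the E12.5 list 7 were higher in EPDCs (20.5%). No region passed adjustment over all 154147, the smallest adjusted p being 0.218 for stage and 0.0721 for EPDCs.

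**Figure D4:**
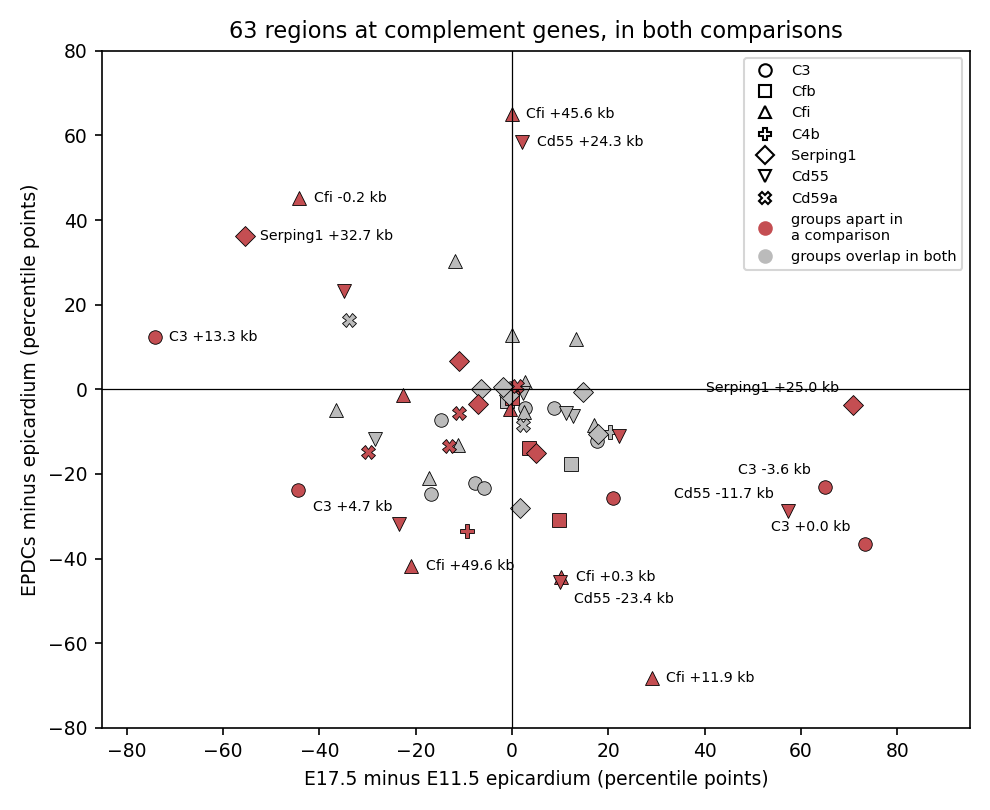
Difference between stages (horizontal axis) and between EPDCs and epicardium (vertical axis), in percentile points, for the 63 regions; symbols give the gene, red marks regions whose groups did not overlap in at least 1 comparison, and those past 40 points in either are named. C3 +13.3 kb lies at the far left (-74.1), the C3 start at the far right (73.3), Cfi +11.9 kb at the bottom (-68.1) and Cfi +45.6 kb at the top (65.0).

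The promoters whose levels were most like those of each member over the 9 lists were found among 14707 others by the root mean square difference. For C3 they were H1foo, Anxa8 and Mrgprf, at 1.56 to 2.64 percentile points, all called at E17.5 alone. For Cfi they were Map3k21, 2200002D01Rik and Tceal5, at 3.23 to 4.05 points. Cenpa, Nsmce1 and Dcaf12 were nearest to Serping1, Frmd8, Tnfrsf21 and Snx24 to Cd55, and Mrpl16, Plekhb2 and Snrpb2 to Cd59a.

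A list of 40 other complement genes was then taken by role. Promoters of 17 were called in some list and of 16 in at least 2, while 23 were at 0 throughout, among them C1qa, C1qb, C1qc, Masp2, C4a, Hc, C9, Cfd, Cfp, C5ar1 and Itgam. Of the 16, 2 were higher and 9 lower at E17.5 without overlap, against 11.3% and 25.4% of all promoters, and 5 were lower and 2 higher in EPDCs, against 9.80% and 7.05%. The median stage difference was -3.39 points against -0.415 over all promoters. The number lower at E17.5 went from 9 to 5 when summits were ranked by fold enrichment, against 25.5% of all promoters, to 5 on the log2 depth-normalized score, against 12.2%, and to 6 with equal numbers of top summits, against 15.2%.

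Among the genes that start the classical and lectin pathways, both proteases of C1 were higher at E17.5. C1s1 was 0, 0 and 12.7 at E11.5, 84.2, 89.9 and 87.8 at E17.5, and 0, 0 and 1.92 in EPDCs, near to the pattern of C3. C1ra was 81.1 to 84.9, then 86.0 to 90.1, and 53.8 to 72.4 in EPDCs, the order of Cfi. These are the proteases that C1 inhibitor blocks. The collectin gene Colec11 went the other way, at 73.1 to 79.2, 54.5 to 60.8 and 82.0 to 88.5, although its stage groups overlapped when summits were ranked by fold enrichment, and Colec12 was lower at E17.5 by 3.81 points (-3.81), a call lost on the log2 depth-normalized score (-0.09), on which it was instead higher in EPDCs (0.24). The lectin protease gene Masp1 was lower in EPDCs (45.0, 53.0 and 60.6) than in the epicardium (63.3 to 73.1), a call that was lost with equal numbers of top summits and by fold enrichment.

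C2, which supplies the protease of the classical convertase, was higher in EPDCs (69.6, 74.7 and 79.3) than in the epicardium (58.1 to 69.0) at its outermost start. At the start of its main transcript, inside the Cfb locus as Cfb -19.5 kb, EPDCs were lower (15.8, 0 and 40.1) than the epicardium (43.1 to 59.9); this region was chosen after its values were seen. In the terminal pathway C7 was called at 35.1, 68.0 and 57.6 at E11.5, in no E17.5 list, and at 52.6 to 66.9 in EPDCs. C8g was called in 8 lists, with its summit just outside the window in the remaining one. Of the soluble regulators, clusterin (Clu) was lower in EPDCs by 2.65 points (-2.65), a call lost when summits were ranked by fold enrichment and on the log2 depth-normalized score.

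All 5 other membrane regulators, Cd55b, Cd59b, Cd46, Cr1l and Cr2, were lower at E17.5 without overlap, against 25.4% of all promoters. Only Cd55b and Cr2 stood apart when summits were ranked by fold enrichment (against 25.5%) or on the log2 depth-normalized score (against 12.2%). The difference at Cd46 changed its sign on both. Cd46 was also lower in EPDCs (90.8, 87.6 and 85.8) than in the epicardium (92.5 to 95.2), without overlap on each of the 5 scales compared. The complement receptor gene Cr2 showed the largest of these falls, from 89.6, 92.7 and 92.3 to 67.4, 49.7 and 44.6. Cd55b fell from 41.5 to 48.4 at E11.5 to 14.7 to 30.8 at E17.5 and was 0, 0 and 2.99 in EPDCs. Of the receptors, Itgb2 was lower at E17.5 (14.7, 28.1 and 1.59) than at E11.5 (39.0 to 40.6) but not with equal numbers of top summits or by the strongest interval. C3ar1, the receptor for C3a, overlapped in both comparisons at 26.4 to 66.7, but was lower in EPDCs on the log2 depth-normalized score (-0.87).

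**Figure D5:**
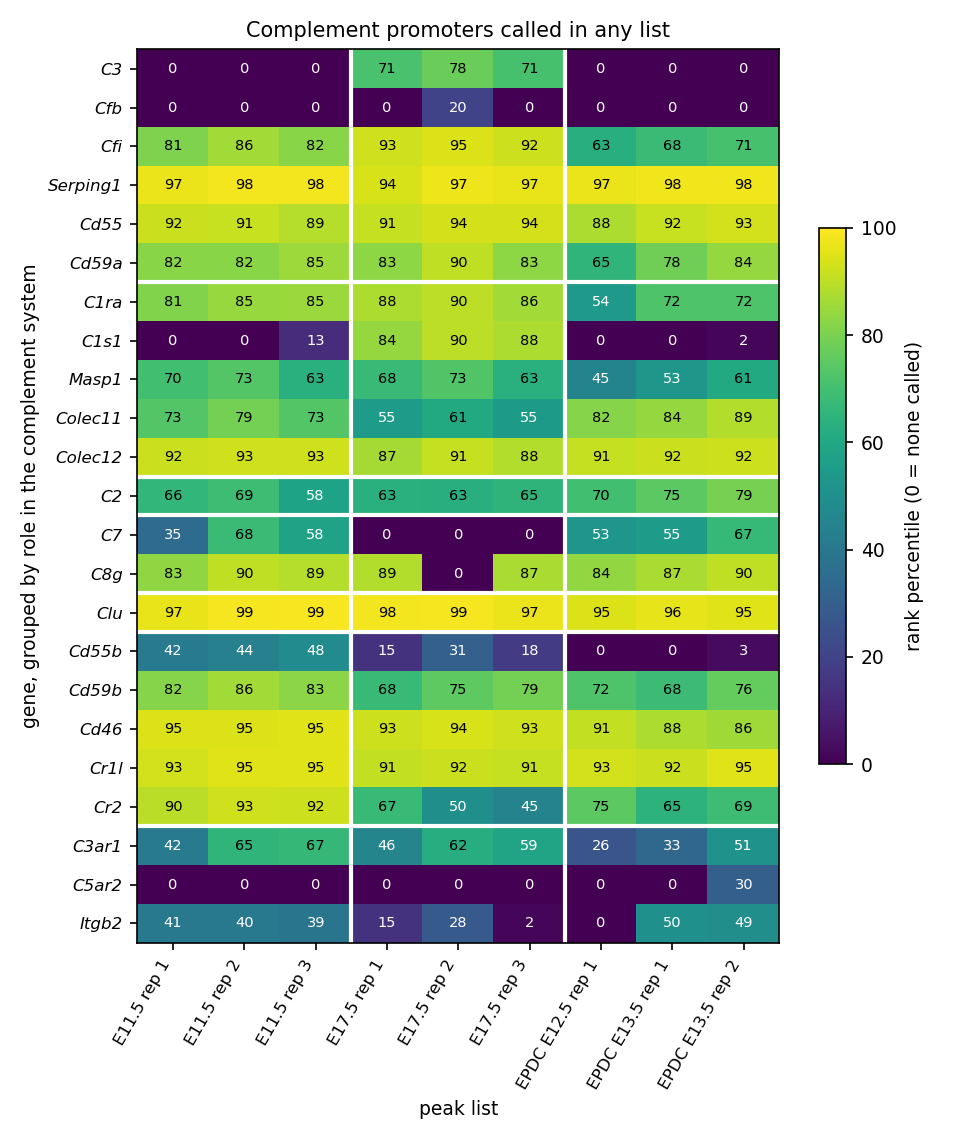
Rank percentile (colour and printed value, 0 where none was called) of the promoters of 6 member genes and 17 other complement genes called in any of the 9 lists, with genes in rows grouped by role and lists in columns. C3 and C1s1 are high at E17.5 and at or near 0 elsewhere, C7 is at 0 only at E17.5, and Serping1, Clu, Cd46 and Cr1l are high throughout.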

How the data were processed

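ATAC-seq peak lists of 9 libraries were analysed, from 10 samples; the labels call the biological replicates independent pools of hearts, and a single list covers the technical replicates of 1 E13.5 sample, which therefore entered once. According to the methods, the authors aligned reads to mm10, removed duplicate, multimapped, blacklisted and mitochondrial reads, and called peaks on fragments with MACS2 (2.2.9.1), taking 0.01 as the q limit. The deposited lists give each summit a fold enrichment (a ratio) over local background, a −log10 p and a −log10 q, with no normalization between libraries.

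From its fold enrichment and its −log10 p, each summit was assigned the integer fragment count that gave back the listed p within 0.1 percent. Windows of 501 bp were centred on the summits, and where windows overlapped the one with the highest −log10 p, scaled to its list, was kept. Regions with a summit in at least 2 lists were tested. Groups that did not overlap counted as apart. Differences in mean rank percentile were tested by two-sided exact permutation (20 assignments for stage, 84 for EPDCs) with Benjamini-Hochberg adjustment over all regions or promoters. The steps were tested on simulated data. The number of lists, 3 in each group, limits the precision of every SD. EPDC lists had 252 to 268 weak summits on contigs outside the chromosomes used, which were left out, and the epicardial lists had none. The local background equalled that of the genome at 36.8% to 48.6% of EPDC summits and 25.0% to 30.9% of epicardial summits. The reason for these differences was not tested. Words of 40 bases were counted on the 21 assembled chromosomes of GRCm38.p6, the build of mm10.

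The genes, marker lists and motifs were chosen with earlier results of these data known. Distal regions were named by rule: in each locus the 2 of highest mean percentile, and over all loci up to 5 of the largest difference without overlap in each comparison; exceptions are stated. Similar promoters were the 3 nearest among those called in at least 3 lists. Other complement genes were named where their groups did not overlap, and C3ar1, C8g and the uncalled genes after their values were seen. The list of other complement genes is not complete, and 1 gene is not reported here. Other rankings, thresholds, windows and left-out lists were tried as alternatives. Python (3.11.15) with numpy 2.4.6, pandas 2.3.3 and scipy 1.17.1 was used.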

Additional observations from a re-analysis of the deposited data

How the results depend on the processing

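The stage differences at C3 +13.3 kb, C3 -3.6 kb, Cfi +11.9 kb, Cd55 -11.7 kb, Cd55 -23.4 kb, Serping1 +25 kb and Serping1 +32.7 kb kept their direction and lack of overlap under every alternative run on them. So did the EPDC differences at Cfi +11.9 kb, Cfi +45.6 kb, Cd55 -23.4 kb and Cd55 +24.3 kb, and both differences at the Cfi promoter. Leaving out 1 list and the replicate block could not have changed this, since groups that stand apart stay apart under both. Only the other rankings, thresholds and windows could. At Cd55 -11.7 kb for stage and Cfi +11.9 kb and Cfi +45.6 kb for EPDCs this supports nothing, since these were called only in the higher group. The C3 promoter lost its stage call only when any annotated transcript start was used (7.29 points). That it kept the call otherwise supports nothing either, since it was called only in E17.5 lists. Counts moved more. On the log2 depth-normalized score 19 regions were higher at E17.5 (30.2%, against 18.4% of all regions) and 16 lower (25.4%, against 29.3%), 13 were lower in EPDCs (20.6%, against 11.7%) and 7 higher (11.1%, near the share of all regions), and 4 promoters differed by stage and 2 in EPDCs (against 45.4% and 18.0% of all promoters). With equal numbers of top summits 8 regions were lower at E17.5 (12.7%, against 19.9%) and 7 were higher in EPDCs (11.1%, against 13.3%). On that scale 4 promoters were higher at E17.5 (against 23.6% of all promoters) and none lower (against 15.2%). Of the 29 regions within 10 kb of the genes 7 were higher (24.1%) and 6 lower (20.7%) at E17.5 and 5 lower in EPDCs (17.2%), and within 50 kb 24 (22.2%), 21 (19.4%) and 16 (14.8%), with 10 higher in EPDCs (9.26%), against 13.1%, 32.8%, 9.70% and 11.2% of all regions. With any transcript start 1 promoter differed by stage and 2 in EPDCs (against 37.3% and 16.96%). Leaving out 1 list at a time gave 13 to 24 regions higher at E17.5 (24 without E17.5 replicate 1), 13 to 22 lower (22 without E11.5 replicate 1, 20 without E17.5 replicate 2), 10 to 17 lower in EPDCs (17 without E13.5 EPDC replicate 2), 4 to 7 higher in EPDCs (7 without the E12.5 list), 2 to 3 promoters by stage (against 42.9% to 47.0%) and 1 to 2 in EPDCs (against 17.9% to 31.3%). With the replicate block, where all 3 same-numbered differences had to share a sign, 13 regions were higher and 20 lower at E17.5 (against 15.9% and 37.8% of all regions) and 3 promoters differed (against 51.9% of all promoters); the numbers did not pair the lists, with correlations of 0.0141, 0.0405 and -0.0315 between the deviations of same-numbered lists. The sign reversed by stage at Cfb +12.2 kb (0.32) and Cfi +42.8 kb (0.28) on the log2 score, C4b +30.7 kb (0.55) with equal numbers and Cd59a +38.8 kb (4.35) by fold enrichment, and for EPDCs at Cfb +12.2 kb (0.41) by fold enrichment. Leaving out 1 list also changed signs where groups overlapped. By stage this was at Cd55 +24.3 kb (-12.0 to 14.2), Cfb +12.2 kb, Cfi +42.8 kb and the Cd59a promoter (-0.229 to 3.57). For EPDCs it was at Serping1 +25 kb (-17.4 to 16.2) and the Cd55 and Serping1 promoters. The cause was not tested. Shallower lists may have missed weak sites, above all E17.5 replicate 1 with the fewest summits (94909), which was not tested either.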
